A study of Mus musculus with 8 samples.

Results

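LSK and LK cells sorted from Ripk3-/- bone marrow were compared by RNA-seq, with 2 libraries of each population. These 4 libraries were taken by their labels for genotype and sorted population out of 8 in the series, and the other 4 are 2 WT LSK and 2 WT LK libraries. LSK cells are Lin- Sca1+ Kit+ and LK cells are Lin- Sca1- Kit+, all from mice whose background the labels give as CD57BL6/J. The labels state that no treatment was given before RNA was extracted, whereas the study's text describes cells collected after repeated low doses of X-rays, so that the state of the mice cannot be settled from the sources used here. The age of the mice, the exons removed by the knockout and the number of mice behind each library were not given in the labels.

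LSK cells hold the hematopoietic stem cells (HSCs) and multipotent progenitors, which can form every blood lineage and divide rarely at the stem cell end of the population. LK cells hold the committed myeloid progenitors (MPs), from which granulocytes, monocytes, mast cells, red cells and platelets arise. Ripk3 is a kinase that activates Mlkl to trigger necroptosis, a lytic form of cell death, and both populations lack it here, so that the comparison asks how stem and progenitor cells differ from MPs in the absence of Ripk3.

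Levels are given as counts per 1000000 reads (CPM), made from reads recovered from the deposited values and scaled together over the 4 libraries. CPM is not divided by gene length, and levels of different genes were therefore not compared. The LSK libraries held 12657237 and 10164743 reads, and the LK libraries 14628031 and 16280811 reads, so that 3 reads in a library correspond to 0.210 to 0.260 CPM. A log2 difference is LSK minus LK on log2(CPM + 1), which understates the change of genes near 0. Each is given with its standard error (SE) and the p-value of limma adjusted by Benjamini-Hochberg over all 15287 genes tested. The labels do not say whether the 2 libraries of a population came from separate mice, and p-values therefore measure only the spread between these libraries, which may be technical. These are bulk libraries, in which fewer cells of a type and less RNA per cell cannot be told apart.

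The targeted gene was read first. Ripk3 stood at 3.15 and 0.954 CPM in the LSK libraries and 18.3 and 11.99 CPM in the LK libraries, against 143 to 169 CPM in the 4 WT libraries when all 8 were scaled together. Every Ripk3-/- library was thus far below every WT library, and within the knockout the remaining Ripk3 signal was lower in LSK cells (log2 difference -2.47, SE 0.58, adjusted p = 0.00939). That difference did not pass without LK replicate 1 or 2 (adjusted p = 0.111 and 0.0668). The libraries also matched their sort. Ly6a, which encodes Sca1, was 175 and 210.1 CPM in LSK and 4.66 and 0.140 CPM in LK (log2 difference 6.24, SE 0.57, adjusted p = 8.54e-06). Kit, the antigen on which both populations were selected, was 432 and 315 CPM in LSK and 370.4 and 363 CPM in LK (log2 difference 0.01, SE 0.18, adjusted p = 0.983). The LSK values of Ly6a were all above those of LK, and the values of Kit overlapped. Of 11 genes for surface antigens used to sort progenitors, 5 were higher and 3 were lower in LSK cells, and 3 were higher without LSK replicate 1 or LK replicate 2. Flt3, the receptor of multipotent and lymphoid-primed progenitors, was 815 and 786 CPM against 101 and 78.6 CPM (log2 difference 3.15, SE 0.18, adjusted p = 1.89e-07). Cd34 was 1336 and 941 CPM against 554 and 553 CPM (log2 difference 1.02, SE 0.17, adjusted p = 0.00131). Fcgr3, whose antigen marks granulocyte-monocyte progenitors, was 33.03 and 43.5 CPM in LSK and 317 and 326 CPM in LK (log2 difference -3.05, SE 0.22, adjusted p = 1.09e-06). These are the antigens by which stem and committed progenitors are usually told apart, and each had both libraries of a population on the same side. Slamf1 (CD150) at 18.7 and 11.9 CPM against 14.3 and 3.93 CPM and Cd48 at 279 and 240.2 CPM against 393 and 317 CPM did not pass the test, with adjusted p = 0.317 and 0.113.

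Across all genes, 2725 of 15287 differed between Ripk3-/- LSK and Ripk3-/- LK cells, which is 17.8% of those tested. In LSK cells 1212 genes were higher (7.93%) and 1513 were lower (9.9%), and 1923 genes passed the test with a difference of at least 2-fold (12.6%). The 2 LK libraries weighed most on these counts, since 1381 genes passed without LK replicate 1 and 913 without LK replicate 2. The libraries of the 2 populations did not overlap in 57.2% of the genes, with LSK above LK in 4530 and below it in 4218. The median log2 difference of all genes was 0.06. It rose to 0.29 when the libraries were scaled by total reads and to 0.34 with the values as deposited, where 65.9% and 72.6% of the genes that passed were higher in LSK in place of 44.5%. Small differences of gene groups are therefore to be read against that shift. The gene groups below are lists written by hand, and where 0 members were higher or lower by limma, edgeR also called 0 in that direction, and 0 to 3 members had an unadjusted p under 0.05 there.

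**Figure D1:**
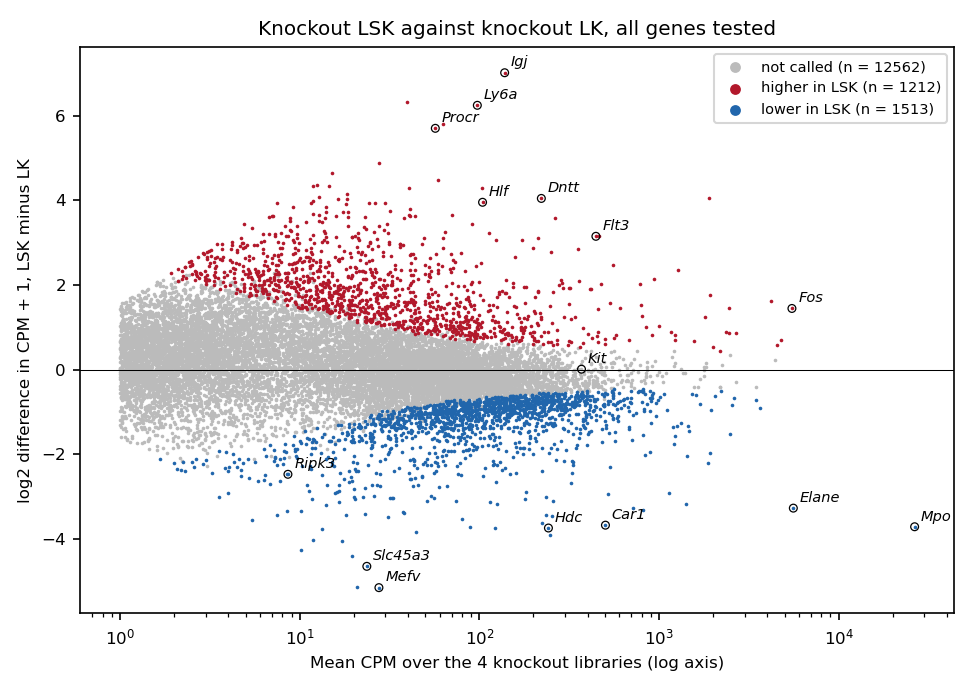
Each point is a gene of the Ripk3-/- libraries, placed by its mean level over the 4 libraries (CPM, log axis) and by the log2 difference of LSK minus LK, with genes that passed an adjusted p of 0.05 in color. The 1212 genes higher in LSK lie above 0 and the 1513 lower genes lie below it, with Mpo at a log2 difference of -3.71 among the genes of highest level.

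The 12 protein-coding genes with the largest positive differences included genes known from stem cells and from lymphoid cells. Igj, the joining chain of secreted antibodies, was 248 and 301 CPM in LSK and 0 and 3.51 CPM in LK (log2 difference 7.01, SE 0.54, adjusted p = 1.8e-06). Ltb (lymphotoxin beta), a cytokine of the TNF family, was 147 and 101 CPM against 1.29 and 1.12 CPM (log2 difference 5.80, SE 0.40, adjusted p = 8.68e-07). Procr, the endothelial protein C receptor by which mouse HSCs are enriched, was 127 and 97.7 CPM against 1.36 and 0.982 CPM (log2 difference 5.70, SE 0.41, adjusted p = 1.09e-06). In all of these the LK libraries were near 0 and the LSK libraries well above it. Others of the 12 were Ly6a, Hes1 (a repressor downstream of Notch, log2 difference 4.64), Ndn (necdin, 4.37), Cdkn1c (4.33), Bdh2 (4.33), the interferon-induced GTPase Iigp1 (4.14), Gm5111 (4.89) and Gm11428 (4.49).

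The 12 protein-coding genes with the largest negative differences included genes known from granulocytes, monocytes, mast cells and red cells. Mefv, which encodes the pyrin protein of myeloid cells, was 0.674 and 0.434 CPM in LSK and 47.3 and 61.9 CPM in LK (log2 difference -5.15, SE 0.49, adjusted p = 1.16e-05). Hdc, the histidine decarboxylase of mast cells and basophils, was 37.8 and 28.2 CPM against 415 and 488 CPM (log2 difference -3.74, SE 0.22, adjusted p = 1.89e-07). Car1, a carbonic anhydrase of red cells, was 74.7 and 69.6 CPM against 937 and 931 CPM (log2 difference -3.68, SE 0.17, adjusted p = 3.01e-08). Both LK libraries were far above both LSK libraries in each of them. The others were Slc45a3 (-4.65), the actin-severing protein Scin (-4.41), the Kell antigen Kel (-4.06), coagulation factors F13a1 (-3.90) and F10 (-3.78), the water channel Aqp1 (-3.84), Tifab (-3.74), Mpo (-3.71) and Igsf6 (-3.63).

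Genes of stem cell identity were higher in LSK cells as a group. Of 26 genes tested, 20 were higher and 0 were lower, with a median log2 difference of 2.52 against 0.06 for all genes, and 18 to 20 passed when any of the 4 libraries was left out. Hlf, a transcription factor of HSCs, was 183 and 209.8 CPM in LSK and 12.2 and 11.2 CPM in LK (log2 difference 3.95, SE 0.26, adjusted p = 5.59e-07). Esam, an adhesion molecule of HSCs, was 166 and 97.7 CPM against 8.16 and 10.5 CPM (log2 difference 3.64, SE 0.33, adjusted p = 8.54e-06). Mecom (Evi1) was 45.5 and 55.0 CPM against 1.43 and 3.51 CPM (log2 difference 3.95, SE 0.46, adjusted p = 6.53e-05). All LSK values of these genes were above all LK values, and the same held in 22 of the 26. The transcription factor Meis1 had a log2 difference of 1.84, Txnip, a regulator of redox state, of 1.83, and Pdzk1ip1 of 2.72. The 6 members that did not pass were Hoxb5, Slamf1, Prdm16, Tek, Ctnnal1 and Vwf, with log2 differences from 0.25 to 1.76.

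HOXA and HOXB genes, which encode homeodomain factors of stem and progenitor cells, were measured at low levels. Of 14 tested, 4 were higher in LSK, 0 were lower, and the median log2 difference was 1.73. Hoxa9 was 55.0 and 54.6 CPM in LSK and 10.7 and 18.2 CPM in LK (log2 difference 1.89, SE 0.34, adjusted p = 0.00195). Hoxa10 was 28.3 and 21.9 CPM against 1.15 and 3.44 CPM (log2 difference 3.07, SE 0.53, adjusted p = 0.00134). Hoxa5 and Hoxb4 also passed, at log2 differences of 1.79 and 2.004 with adjusted p = 0.0276 and 0.0497. Hoxa2 had 0 reads in both LK libraries and 1.87 and 4.68 CPM in the LSK libraries, at least 30.8-fold higher against a floor of 3 reads over the LK group, although its adjusted p was 0.0694 by limma. Without LSK replicate 2, LK replicate 1 or LK replicate 2, 2 HOX genes passed.

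Of 18 lymphoid priming genes 9 were higher in LSK cells and 1 was lower, with a median log2 difference of 1.01. Dntt, the terminal transferase of lymphoid precursors, was 455 and 381 CPM in LSK and 24.2 and 24.4 CPM in LK (log2 difference 4.04, SE 0.22, adjusted p = 8.5e-08). Lck, a kinase of T cell receptor signaling, was 89.9 and 63.6 CPM against 11.5 and 11.2 CPM (log2 difference 2.64, SE 0.32, adjusted p = 9.88e-05). Satb1, a chromatin organizer of lymphoid lineages, was 116 and 112 CPM against 23.0 and 31.4 CPM (log2 difference 2.05, SE 0.26, adjusted p = 0.000148). In each of them the populations did not overlap. Mef2c (0.94), Bcl11a (1.08), and the chemokine receptors Ccr9 (2.55) and Ccr7 (2.49) were higher as well. Genes of committed B cell precursors did not pass, among them Vpreb1 at a log2 difference of -0.06, Igll1 of 0.07 and Rag2 of 0.08. The number of higher members was 5 to 7 when a library was left out, and it was 5 without LK replicate 2.

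MHC class II genes, which present antigen on B cells, dendritic cells and macrophages, were examined next. Of 10 genes, 7 were higher in LSK cells and 0 were lower, with a median log2 difference of 1.82, and 7 passed without any 1 of the 4 libraries. H2-Aa was 213 and 199 CPM in LSK and 22.7 and 19.7 CPM in LK (log2 difference 3.23, SE 0.24, adjusted p = 1.47e-06). Cd74, the invariant chain, was 479 and 401 CPM against 54.4 and 72.4 CPM (log2 difference 2.78, SE 0.21, adjusted p = 1.55e-06). H2-Eb1 was 103 and 98.8 CPM against 13.97 and 14.6 CPM (log2 difference 2.74, SE 0.28, adjusted p = 2.37e-05). Every LSK value of these genes lay above every LK value. H2-Ab1 (2.11), H2-DMa (1.20), H2-Ob (1.79) and H2-Oa (1.84) completed the 7. Ciita, the co-activator on which transcription of these genes depends, was 7.49 and 10.5 CPM in LSK and 6.95 and 2.10 CPM in LK, which did not pass (adjusted p = 0.284).

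Promoters of MHC class II genes are known to carry a CCAAT element, bound by NF-Y, close to the start of transcription. The letters CCAAT, searched on both strands from 250 bases before to 50 bases after the start, were found in all 7 of the list's genes with a window in the RefSeq table (build GRCm38.p6), against 41.1% of 27025 genes. This is a description of the windows and not of binding. The 120 bases before the start of H2-Aa and H2-Eb1 are shown, 5′ to 3′ on the strand of the gene. Capitals mark CCAAT or its reverse complement. These 2 genes were chosen among those that passed and whose 120 bases hold the motif. The H2-Aa window is chr17:34287824-34287943 on the minus strand and the H2-Eb1 window is chr17:34305747-34305866 on the plus strand.
H2-Aa: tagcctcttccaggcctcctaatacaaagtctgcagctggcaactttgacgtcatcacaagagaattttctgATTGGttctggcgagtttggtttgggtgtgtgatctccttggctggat
H2-Eb1: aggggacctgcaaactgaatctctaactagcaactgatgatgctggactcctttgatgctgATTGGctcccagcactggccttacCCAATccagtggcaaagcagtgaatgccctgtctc

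Interferon-stimulated genes, which encode antiviral proteins, were higher in LSK cells in 17 of 30 and lower in 1, with a median log2 difference of 1.33. Ifitm3, a membrane protein that blocks viral entry, was 693 and 843 CPM in LSK and 185 and 189 CPM in LK (log2 difference 2.02, SE 0.17, adjusted p = 3.78e-06). Oasl2 was 143 and 89.9 CPM against 7.52 and 16.1 CPM (log2 difference 3.24, SE 0.37, adjusted p = 5.37e-05). Irf7, a transcription factor of the interferon response, was 67.9 and 37.0 CPM against 10.1 and 9.40 CPM (log2 difference 2.25, SE 0.38, adjusted p = 0.00114). Ifi44 (4.04), Gbp2 (2.09), Ifit1 (2.60) and Rsad2 (2.21) had differences of a like size, and both LSK libraries were above both LK libraries in 24 of the 30. Isg15 at 0.70 did not pass, and Gbp3 was lower at -0.87. The number higher was 9 without LK replicate 2 and 13 without LK replicate 1 or LSK replicate 1. Among the 18 members that share under 10% of their transcript with another gene, 11 were higher.

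Immediate-early genes, which are transcribed within minutes of a stimulus and can also respond to cell handling, were higher in LSK cells in 22 of 28 and lower in 0, with a median log2 difference of 1.35. Fos, the gene with the most reads in both LSK libraries, was 8862 and 7207 CPM in LSK and 2620.5 and 3291 CPM in LK (log2 difference 1.44, SE 0.15, adjusted p = 2.62e-05). Nr4a1, an orphan nuclear receptor, was 877 and 782 CPM against 74.8 and 112 CPM (log2 difference 3.16, SE 0.20, adjusted p = 4.02e-07). Zfp36, which promotes decay of inflammatory mRNAs, was 2809 and 3132 CPM against 864 and 883 CPM (log2 difference 1.76, SE 0.14, adjusted p = 2.02e-06). Both LSK libraries were above both LK libraries in 25 of the 28 genes, Fosb (2.46), Egr1 (1.25), Socs3 (2.64) and Klf4 (2.50) among them. For Dusp2, a MAP kinase phosphatase, the LK libraries were uneven at 30.2 and 60.9 CPM, against 377 and 378 CPM in LSK (log2 difference 3.11, SE 0.28, adjusted p = 6.89e-06). Without LK replicate 1 the number higher was 14. The time between sorting and lysis was not given in the labels, and its part in this difference was not tested.

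**Figure D2:**
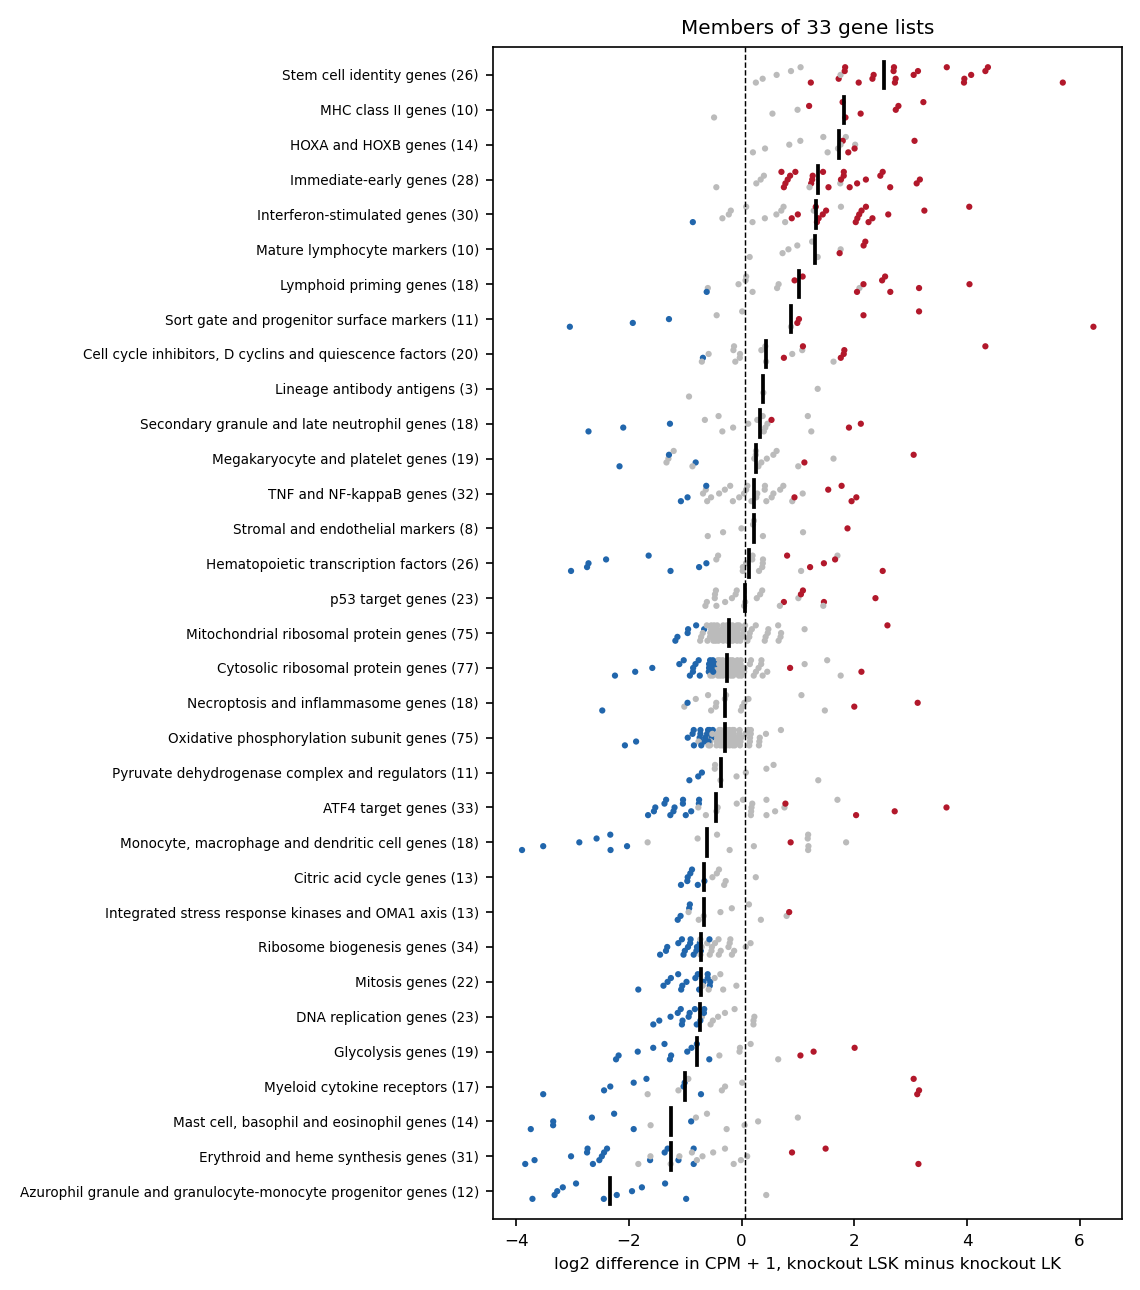
For each gene list the points are the log2 differences (LSK minus LK) of its members in Ripk3-/- cells, red where higher and blue where lower by the test and gray where not passed, and the bar is the list's median, with the dashed line at the median of all genes tested. Stem cell identity genes (median 2.52), MHC class II genes (1.82) and HOX genes (1.73) lie furthest to the LSK side, and azurophil granule genes (-2.33) furthest to the LK side.

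Azurophil granule and granulocyte-monocyte progenitor genes were lower in LSK cells in 11 of 12, with a median log2 difference of -2.33, and 11 passed whichever library was left out. Mpo, the myeloperoxidase of neutrophil granules and the gene with the most reads in both LK libraries, was 4398 and 3130.0 CPM in LSK and 42139 and 56295 CPM in LK (log2 difference -3.71, SE 0.17, adjusted p = 3.01e-08). Elane, neutrophil elastase, was 1156 and 939 CPM against 9074 and 11211 CPM (log2 difference -3.27, SE 0.15, adjusted p = 3.01e-08). Ctsg, cathepsin G, was 307 and 259 CPM against 2447 and 2659.8 CPM (log2 difference -3.18, SE 0.15, adjusted p = 3.41e-08). The lowest LK value of each was above the highest LSK value. Ms4a3 (-3.32), Clec12a (-2.94), Cst7 (-2.45) and Prtn3 (-2.22) followed. Lyz2, the lysozyme of monocytes and neutrophils, was the exception at 899 and 835 CPM in LSK and 639 and 641 CPM in LK (adjusted p = 0.0565).

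Genes of late neutrophils went both ways, with 3 of 18 higher, 3 lower and a median log2 difference of 0.33. Over all genes 7.93% were higher and 9.9% lower, and by edgeR 2 of the list were higher and 2 lower. Retnlg (2.12), Padi4 (1.90), which citrullinates histones, and S100a9 (0.53) were higher in LSK cells. Cebpe (-2.72), the transcription factor of granule formation, Pglyrp1 (-1.27) and Cxcr2 (-2.10) were lower. Ltf, the lactoferrin of secondary granules, was 199 and 180.3 CPM in LSK and 246 and 257 CPM in LK, and Camp was 201 and 240.4 CPM against 164 and 170.1 CPM, neither of which passed (adjusted p = 0.138 and 0.179). S100a9 did not pass by edgeR (adjusted p = 0.0651) or without LSK replicate 2 or either LK library (0.182 to 0.348). The lower genes fell to 1 without LK replicate 2, and 6 genes were higher with the values as deposited. Transcripts of late granules were thus measured in all 4 libraries of these Lin- cells.

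Of 18 monocyte, macrophage and dendritic cell genes, 7 were lower in LSK cells and 1 was higher, with a median log2 difference of -0.61. Csf1r, the receptor for M-CSF, was 15.4 and 9.28 CPM in LSK and 149 and 148 CPM in LK (log2 difference -3.52, SE 0.30, adjusted p = 4.46e-06). Ccr2, the receptor by which monocytes leave the marrow, was 9.89 and 12.1 CPM against 70.5 and 49.7 CPM (log2 difference -2.33, SE 0.34, adjusted p = 0.00041). Cd14, a co-receptor for bacterial lipopolysaccharide, was 2.92 and 3.21 CPM against 29.8 and 28.1 CPM (log2 difference -2.88, SE 0.45, adjusted p = 0.000668). No LSK value reached an LK value in these genes. Ctss, the cathepsin that trims the invariant chain of MHC class II, was the gene higher in LSK (0.87, adjusted p = 0.0399), which it was not with LSK replicate 2 or either LK library left out.

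Mast cell, basophil and eosinophil genes were lower in LSK cells in 7 of 14 and higher in 0, with a median log2 difference of -1.26. Cpa3, the carboxypeptidase of mast cell granules, was 47.4 and 34.6 CPM in LSK and 198 and 199 CPM in LK (log2 difference -2.26, SE 0.23, adjusted p = 2.38e-05). Epx, eosinophil peroxidase, was 5.02 and 3.82 CPM against 29.5 and 36.9 CPM (log2 difference -2.66, SE 0.43, adjusted p = 0.000805). Ms4a2, a chain of the IgE receptor, was 0 and 1.82 CPM against 17.3 and 14.9 CPM (log2 difference -3.35, SE 0.63, adjusted p = 0.00258). All LSK values were below all LK values for these genes. The basophil protease Mcpt8 at -0.62 and Prss34 at 0.29 did not pass. Without LK replicate 2, 4 genes of this list passed.

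Erythroid and heme synthesis genes were lower in LSK cells in 16 of 31 and higher in 3, with a median log2 difference of -1.26. Gata1, the transcription factor on which red cell and platelet formation depends, was 20.7 and 13.01 CPM in LSK and 111 and 121 CPM in LK (log2 difference -2.74, SE 0.30, adjusted p = 3.48e-05). Klf1, the activator of globin genes, was 15.1 and 8.33 CPM against 84.4 and 116 CPM (log2 difference -3.03, SE 0.34, adjusted p = 5.14e-05). Epor, the erythropoietin receptor, was 9.06 and 6.07 CPM against 39.5 and 51.0 CPM (log2 difference -2.44, SE 0.38, adjusted p = 0.000675). The LK libraries exceeded the LSK libraries in these genes throughout, as they did for Ermap (-2.74) and the transferrin receptor Tfrc (-1.31). The 3 genes that were higher in LSK were Hbb-b1, a beta globin of mature red cells, at 21.2 and 30.7 CPM against 1.86 and 2.17 CPM (log2 difference 3.14, SE 0.49, adjusted p = 0.000697), Hba-a2 (1.49) and the carbonic anhydrase Car2 (0.89). Without LK replicate 2, 9 genes were lower.

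Megakaryocyte and platelet genes did not move together, with 2 of 19 higher, 3 lower and a median log2 difference of 0.25. The shares over all genes were 7.93% higher and 9.9% lower. Nbeal2 (1.11), needed for platelet alpha granules, was among those higher in LSK cells. Serpine2 (-2.17), the integrin chain Itga2b (-1.29) and platelet factor 4 (Pf4, -0.82) were lower. Vwf, the von Willebrand factor, had a log2 difference of 0.25 with adjusted p = 0.68. Without LSK replicate 1, 5 genes were lower, and without LK replicate 2, 1 was. The values as deposited gave 5 higher.

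**Figure D3:**
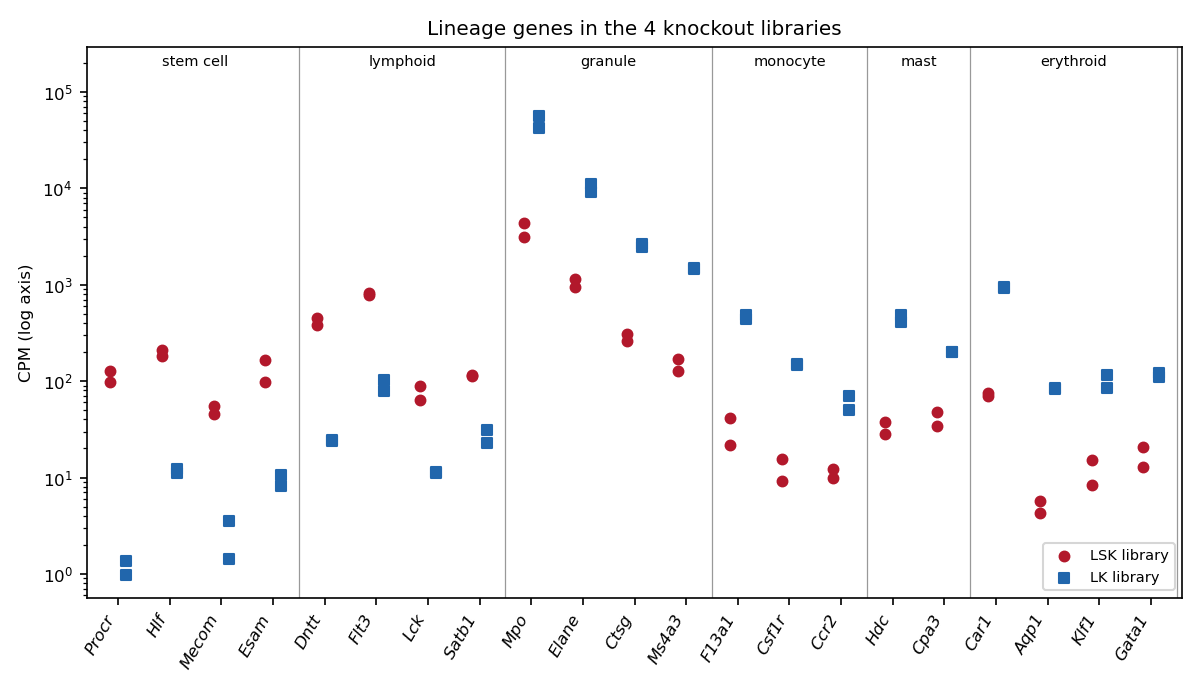
Points are the CPM (log axis) of named stem, lymphoid, granulocyte, monocyte, mast and erythroid genes in each of the 4 Ripk3-/- libraries, LSK and LK in separate colors. Procr, Hlf and Dntt sit higher in both LSK libraries, and Mpo, Csf1r, Hdc and Gata1 sit higher in both LK libraries, without overlap.

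Among 26 hematopoietic transcription factors, 5 were higher in LSK cells and 8 were lower, with a median log2 difference of 0.13. Irf8, a factor of monocytes and dendritic cells, was 66.4 and 72.4 CPM in LSK and 329 and 421 CPM in LK (log2 difference -2.41, SE 0.20, adjusted p = 3.82e-06). Lmo2, which joins Tal1 in complexes of stem and erythroid cells, was 891 and 884 CPM against 314 and 330.3 CPM (log2 difference 1.46, SE 0.15, adjusted p = 2.72e-05). Sfpi1 (PU.1), a factor of myeloid and B cells, was 188 and 146 CPM against 255 and 308 CPM (log2 difference -0.76, SE 0.20, adjusted p = 0.0171). None of these overlapped between populations. Klf4 (2.50), Tal1 (1.21), Nfe2 (0.81) and Zfpm1 (1.66) were higher in LSK. Gata1, Klf1, Cebpe, Cebpd (-1.26), Cebpa (-1.65) and Myb (-0.63) were lower. The number higher was 3 without LSK replicate 1 and 2 without LK replicate 1, and the number lower was 4 without LK replicate 2. The values as deposited gave 8 higher and 5 lower. Gata2 (0.08), Runx1 (0.31) and Fli1 (0.02), which serve in both populations, did not pass.

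Receptors for myeloid cytokines were lower in LSK cells in 8 of 17 (4 with the values as deposited) and higher in 3, with a median log2 difference of -1.01. Ifngr1, the ligand-binding chain of the interferon-gamma receptor, was 290.1 and 248 CPM in LSK and 822 and 918 CPM in LK (log2 difference -1.69, SE 0.16, adjusted p = 1.44e-05). Il1r1, the receptor for interleukin 1, was 32.7 and 43.6 CPM against 1.93 and 5.82 CPM (log2 difference 3.12, SE 0.49, adjusted p = 0.000676). Csf2rb, the shared beta chain for GM-CSF, was 45.5 and 40.7 CPM against 81.9 and 96.7 CPM (log2 difference -1.03, SE 0.25, adjusted p = 0.0108). Ifngr1 and Csf2rb were above LSK in both LK libraries and Il1r1 below. Csf3r, the G-CSF receptor, was lower in LSK at -0.72 (adjusted p = 0.0262 by limma). Csf3r did not pass by edgeR (adjusted p = 0.0544), nor by limma when scaled by total reads (0.0942) or as deposited (0.166). Flt3 was among the receptors that were higher. Without LK replicate 2, 4 receptors were lower.

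Mitosis genes were lower in LSK cells in 16 of 22 and higher in 0, with a median log2 difference of -0.72 (-0.41 with the values as deposited). Ccnb1, the cyclin that drives entry into mitosis, was 78.4 and 61.2 CPM in LSK and 253 and 247 CPM in LK (log2 difference -1.83, SE 0.21, adjusted p = 5.38e-05). Aurkb, a kinase of chromosome segregation, was 157 and 145 CPM against 312 and 318 CPM (log2 difference -1.05, SE 0.18, adjusted p = 0.0012). Kif11, a motor of the mitotic spindle, was 79.3 and 70.9 CPM against 157 and 174 CPM (log2 difference -1.13, SE 0.21, adjusted p = 0.00231). LSK and LK values did not overlap in 21 of the 22 genes, Plk1 (-1.32), Bub1b (-1.39), Cdc20 (-0.75), Prc1 (-0.82) and Top2a (-0.60) among them. Mki67, the proliferation marker Ki-67, was 145 and 175 CPM in LSK and 197 and 204 CPM in LK and did not pass (adjusted p = 0.276). The differences were small beside those of the lineage genes, and the number that passed was 5 without LK replicate 1, 3 without LK replicate 2, and 9 and 7 with libraries scaled by total reads or as deposited.

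DNA replication genes behaved alike, with 14 of 23 lower in LSK, 0 higher and a median of -0.73. Rrm2, a subunit of ribonucleotide reductase, was 171 and 159 CPM in LSK and 469 and 445 CPM in LK (log2 difference -1.46, SE 0.17, adjusted p = 6.83e-05). Mcm7, part of the replicative helicase, was 379 and 324 CPM against 661 and 834 CPM (log2 difference -1.08, SE 0.17, adjusted p = 0.000744). Pcna, the sliding clamp, was 203 and 226 CPM against 378 and 336 CPM (log2 difference -0.73, SE 0.18, adjusted p = 0.0105). LK values were above LSK values in 18 of the 23 genes, and all 6 Mcm genes tested passed. The number that passed was 4 without LK replicate 2 and 8 with the values as deposited.

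Promoters of mitosis genes are known for a cell cycle homology region, TTTGAA, near a CCAAT element. In windows from 250 bases before to 50 bases after the start, TTTGAA on either strand was found in 13 of the 18 mitosis genes with a window (72.2%) and CCAAT in 16 (88.9%), against 20.2% and 41.1% of all 27025 genes. Among 17 DNA replication genes TTTGAA was found in 17.6% and CCAAT in 64.7%. Windows of 120 bases before the start are shown for 4 mitosis genes that passed the test and whose windows hold both motifs, 5′ to 3′ on the strand of the gene (RefSeq, GRCm38.p6), with both motifs or their reverse complements in capitals. They are Kif11 at chr19:37376262-37376381 on the plus strand, Cdc20 at chr4:118437344-118437463 on the minus strand, Prc1 at chr7:80294356-80294475 on the plus strand and Top2a at chr11:99024190-99024309 on the minus strand.
Kif11: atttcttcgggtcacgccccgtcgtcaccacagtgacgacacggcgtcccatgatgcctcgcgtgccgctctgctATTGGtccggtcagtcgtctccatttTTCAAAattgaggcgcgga
Cdc20: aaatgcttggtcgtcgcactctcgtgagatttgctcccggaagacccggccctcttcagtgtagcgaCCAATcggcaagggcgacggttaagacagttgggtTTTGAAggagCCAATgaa
Prc1: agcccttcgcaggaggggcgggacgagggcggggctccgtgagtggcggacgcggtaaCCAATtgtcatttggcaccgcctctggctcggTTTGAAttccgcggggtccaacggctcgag
Top2a: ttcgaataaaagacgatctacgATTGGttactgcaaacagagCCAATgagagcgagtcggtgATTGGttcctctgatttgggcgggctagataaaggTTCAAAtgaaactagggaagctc
The TTTGAA motif, counted to its first base, begins 19, 18, 30 and 23 bases before the start in these 4 windows, and a CCAAT element lies further from the start in each. A match of letters does not show that a factor was bound.

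Inhibitors of the cell cycle and factors of quiescence, counted with the D cyclins, were higher in LSK cells in 6 of 20 and lower in 1, with a median log2 difference of 0.43. Cdkn1c (p57), an inhibitor of cyclin-dependent kinases needed for HSC quiescence, was 20.9 and 26.0 CPM in LSK and 0.215 and 0.210 CPM in LK (log2 difference 4.33, SE 0.56, adjusted p = 0.000169). Klf2, which restrains the cycle in resting T cells, was 196 and 237 CPM against 44.2 and 83.2 CPM (log2 difference 1.81, SE 0.27, adjusted p = 0.000508). Foxo1, a transcription factor held inactive by growth factor signaling, was 29.7 and 38.2 CPM against 11.7 and 6.59 CPM (log2 difference 1.82, SE 0.40, adjusted p = 0.00701). All LSK values of these genes were above all LK values. Cdkn1a (p21, 1.09), Btg2 (0.75) and Tob1 (1.76) were higher as well. Cdk6, a kinase that promotes exit from quiescence, was lower (-0.69) but did not pass as deposited (adjusted p = 0.188) or without LSK replicate 2, LK replicate 1 or LK replicate 2 (0.0682, 0.057 and 0.296), and Cdkn1b (p27) at 0.90 did not pass.

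p53 target genes were higher in LSK cells in 5 of 23 and lower in 0, with a median log2 difference of 0.06, that of all genes. Plk2 was 48.0 and 41.1 CPM in LSK and 8.02 and 7.50 CPM in LK (log2 difference 2.37, SE 0.36, adjusted p = 0.00059). Sesn1 (1.05), Plk3 (1.46), Cdkn1a and Btg2 were the others. Mdm2, which p53 induces and which degrades it, was 0.04 with adjusted p = 0.93, and the pro-apoptotic Bax was -0.64 with adjusted p = 0.0762. Most of the list did not pass, and 1 of its genes did so without LK replicate 1 and 3 without LK replicate 2.

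**Figure D4:**
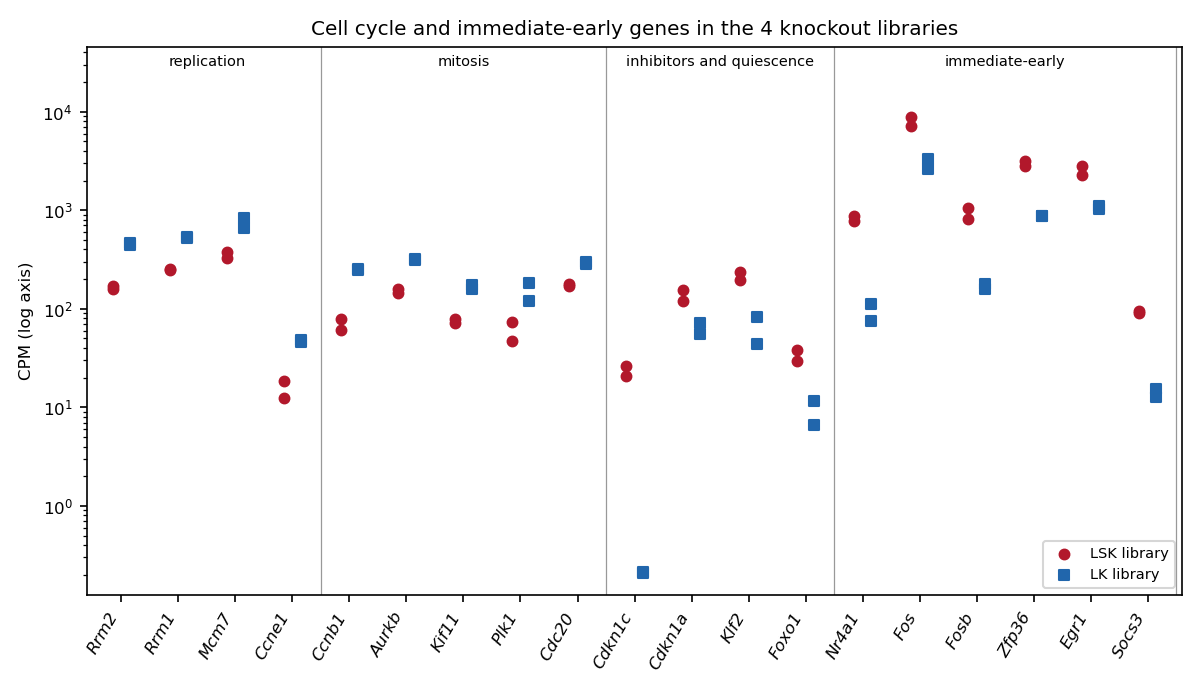
Points are the CPM (log axis) of DNA replication, mitosis, cell cycle inhibitor and immediate-early genes in each of the 4 Ripk3-/- libraries, with LSK and LK in separate colors. Ccnb1, Aurkb, Kif11 and Rrm2 sit lower in both LSK libraries, and Cdkn1c, Klf2 and the immediate-early genes sit higher in both.

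Ribosome biogenesis genes, whose products process ribosomal RNA in the nucleolus, were lower in LSK cells in 16 of 34 and higher in 0, with a median log2 difference of -0.72. Mybbp1a was 153 and 134 CPM in LSK and 303 and 438 CPM in LK (log2 difference -1.34, SE 0.21, adjusted p = 0.000591). Npm1, the nucleolar chaperone nucleophosmin, was 707 and 804 CPM against 1525 and 1398 CPM (log2 difference -0.95, SE 0.15, adjusted p = 0.000598). Fbl, the methyltransferase fibrillarin, was 77.4 and 65.0 CPM against 166 and 193 CPM (log2 difference -1.32, SE 0.21, adjusted p = 0.000878). LSK values were below LK values in 29 of the 34 genes, Nop56 (-1.01), Nolc1 (-1.06) and Ncl (-0.72) among them. The number that passed was 4 without LK replicate 2, 9 without LK replicate 1 and 7 with the values as deposited, where the median was -0.41.

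Genes of central metabolism were examined by pathway. In glycolysis 11 of 19 were lower and 3 were higher, with a median log2 difference of -0.80. Among the 9 that share under 10% of their transcript with another gene, 3 were lower and 2 higher, with a median of -0.04. Hk3, the hexokinase of myeloid cells, was 145 and 95.1 CPM in LSK and 461 and 627 CPM in LK (log2 difference -2.18, SE 0.22, adjusted p = 2.33e-05). Gpi1, the glucose phosphate isomerase, was 702 and 529 CPM against 1614 and 2034 CPM (log2 difference -1.57, SE 0.17, adjusted p = 4.14e-05). Ldha, the lactate dehydrogenase chain of glycolytic cells, was 1404 and 1232 CPM against 2366 and 2791 CPM (log2 difference -0.97, SE 0.15, adjusted p = 0.000502). All were lower in both LSK libraries, whereas Ldhb (1.28), Aldoc (2.005) and the glucose transporter Slc2a3 (1.04) were higher, 1 gene alone without LSK replicate 1, LK replicate 1 or LK replicate 2. In the citric acid cycle 7 of 13 genes were lower (median -0.66), with Cs, citrate synthase, at 213 and 206 CPM against 382 and 409.9 CPM (log2 difference -0.91, SE 0.17, adjusted p = 0.00229). Of 11 genes of the pyruvate dehydrogenase complex and its regulators, 3 enzyme subunits were lower, namely Pdhb (-0.93), Dld (-0.71) and Dlat (-0.77), and none of the kinases Pdk1 to Pdk4 passed. Without LK replicate 2, 1 citric acid cycle gene and 0 pyruvate dehydrogenase genes were lower by limma, and without LK replicate 1, 1 pyruvate dehydrogenase gene was. The values as deposited gave 4 and 1 lower.

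Subunits of oxidative phosphorylation were lower in LSK cells in 19 of 75 and higher in 0, with a median log2 difference of -0.30 that became 0.01 with the values as deposited. Sdha, a subunit of complex II, was 473 and 435 CPM in LSK and 791 and 845 CPM in LK (log2 difference -0.85, SE 0.15, adjusted p = 0.00185). Cox5b of complex IV was 147 and 125 CPM against 258 and 271 CPM (log2 difference -0.96, SE 0.19, adjusted p = 0.0033). Atp5b of the ATP synthase was 2241 and 1825 CPM against 3013 and 3411 CPM (log2 difference -0.66, SE 0.15, adjusted p = 0.00654). These differences were small, and 8 subunits passed without LK replicate 1, 2 without LK replicate 2 and 5 with the values as deposited. Mitochondrial ribosomal protein genes were lower in 6 of 75 and higher in 1 (median -0.23, or 0.03 when scaled by total reads), against 9.9% of all genes lower. These counts turned to 8 higher and 3 lower when scaled by total reads, and to 8 higher and 1 lower as deposited. Without LK replicate 1, 1 of them was lower by limma, and without LK replicate 2, 0 were.

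Cytosolic ribosomal protein genes were lower in LSK cells in 20 of 77 and higher in 2, with a median of -0.26 that became 0.05 with the values as deposited, and 13, 9 and 5 were lower without LSK replicate 1, LK replicate 1 and LK replicate 2 in turn, while the values as deposited gave 9 lower and 8 higher. Rplp0, of the ribosomal stalk, was 1289 and 1144 CPM in LSK and 1927 and 2387 CPM in LK (log2 difference -0.82, SE 0.15, adjusted p = 0.00212). Rpl21 was 44.1 and 41.5 CPM against 192 and 223 CPM (log2 difference -2.25, SE 0.22, adjusted p = 1.57e-05). Rpl41 was 118 and 141 CPM against 473 and 486 CPM (log2 difference -1.89, SE 0.18, adjusted p = 1.24e-05). Nearly all of these genes have pseudogenes of like sequence in the genome, so that reads can be divided among copies. Measured on 31-base stretches of annotated transcripts, 74 of the 77 share at least 10% of their stretches with another gene, and the 3 that share less did not pass. Over all genes tested, the share lower in LSK was 8.66% where no stretch was shared, 18.9% where 10% to under 50% were shared and 23.8% where at least 50% were shared, with median log2 differences of 0.08, -0.24 and -0.27. The part of shared sequence in the counts of ribosomal protein, glycolysis and oxidative phosphorylation genes was not tested beyond leaving such genes out. After that, 3 of 9 glycolysis genes were lower and 2 higher (median -0.04). Of 48 oxidative phosphorylation genes, 9 were then lower (median -0.20). Genes named here that also share at least 10% of their stretches, and whose counts are less certain for it, are Ly6a, Fcgr3, Csf2rb, Csf3r, Car1, Gm5111, Slc45a3, Lyz2, Hba-a2, Hoxa2, Vpreb1, Ifit1, Ifitm3, Isg15, Ccnb1, Cdc20, Plk1, Rrm2, Mcm7, Pcna, Npm1, Fbl, Nop56, Gpi1, Ldha, Ldhb, Pdhb, Cox5b, Eif2s1, Phgdh, Bax and Hmgb1.

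Stress signaling genes gave mixed results. Among 13 genes of the integrated stress response kinases and the OMA1 axis, 4 were lower in LSK cells and 1 was higher, with a median log2 difference of -0.67. Eif2s1, the translation initiation factor subunit that these kinases phosphorylate, was 204 and 198 CPM in LSK and 433 and 422 CPM in LK (log2 difference -1.08, SE 0.17, adjusted p = 0.000621). Ppp1r15a (GADD34), which directs its dephosphorylation, was 554 and 471 CPM against 247 and 328 CPM (log2 difference 0.84, SE 0.18, adjusted p = 0.00646). Atf4, the transcription factor translated under stress, was 349.8 and 337 CPM against 264 and 278 CPM and did not pass (adjusted p = 0.189). The mitochondrial protease Oma1 likewise did not pass (-0.18, adjusted p = 0.683), whereas Opa1, a substrate of it, was lower (-0.92). With either LK library left out, 2 of these genes were lower, and the values as deposited gave 2 lower and 3 higher.

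Of 33 ATF4 target genes, 14 were lower in LSK cells and 4 were higher, with a median log2 difference of -0.45. The lower genes were aminoacyl-tRNA synthetases and enzymes of amino acid and one-carbon metabolism, such as Nars at 163 and 177 CPM in LSK and 485 and 503 CPM in LK (log2 difference -1.53, SE 0.17, adjusted p = 4.29e-05). Asns, asparagine synthetase, was 48.1 and 23.8 CPM against 98.3 and 105 CPM (log2 difference -1.56, SE 0.31, adjusted p = 0.00364). Phgdh, the first enzyme of serine synthesis, was 383 and 228 CPM against 600.2 and 782 CPM (log2 difference -1.21, SE 0.22, adjusted p = 0.00225). The higher genes were of other functions, namely the lipoprotein receptor Vldlr (3.64), the pseudokinase Trib3 (2.72), Nupr1 (2.03) and the immediate-early factor Atf3 (0.78). With the values as deposited 9 targets were lower. Of the targets, 4 were lower and 1 was higher without LK replicate 2, and without LSK replicate 1, 1 was higher.

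Of 32 TNF and NF-kappaB genes 5 were higher in LSK cells and 3 were lower, with a median log2 difference of 0.22, against 7.93% and 9.9% of all genes. The values as deposited gave 10 higher and 1 lower, and 3, 1 and 2 were higher without LSK replicate 1, LK replicate 1 and LK replicate 2 in turn. With either LK library left out, 0 were lower by limma. Icam1, an adhesion molecule induced by NF-kappaB, was 80.5 and 81.4 CPM in LSK and 21.8 and 24.1 CPM in LK (log2 difference 1.77, SE 0.27, adjusted p = 0.000582). Relb (2.04), Traf5 (1.95), Tab2 (0.94) and Traf1 (1.54) were the others higher in LSK. The kinase Ripk1 at 63.7 and 64.3 CPM against 132 and 119 CPM (log2 difference -0.96, SE 0.22, adjusted p = 0.00821), the TNF receptor Tnfrsf1b (-1.08) and the feedback inhibitor Tnfaip3 (-0.63) were lower. Tnf itself was 24.8 and 24.9 CPM against 10.4 and 12.1 CPM and did not pass (adjusted p = 0.0654). In the necroptosis and inflammasome list 2 of 18 were higher and 2 lower, a share close to that of all genes, the last being Ripk1 and Ripk3, neither of which passed with either LK library left out. Il18, a cytokine released after inflammasome activation, was 35.7 and 36.1 CPM in LSK and 3.80 and 2.74 CPM in LK (log2 difference 3.12, SE 0.44, adjusted p = 0.000277), and Zbp1, a sensor of nucleic acids upstream of Ripk3, was 1.999 (adjusted p = 0.0366, 0.068 by edgeR, and 0.0582 to 0.291 without LSK replicate 2 or either LK library). Mlkl was 67.5 and 38.5 CPM against 80.1 and 75.3 CPM and did not pass (adjusted p = 0.177).

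Markers of cells that the sort should remove were summed by cell type, and those of late neutrophils were not low. Summed over 7 mature lymphocyte markers the libraries gave 21.1 to 26.7 CPM in LSK and 7.36 to 8.88 CPM in LK. Of 10 mature lymphocyte genes tested 3 were higher in LSK cells, and 0 or 1 when a library was left out. Among them the T cell marker Cd3g was higher in LSK (8.02 and 4.68 CPM against 0.286 and 0.982 CPM, adjusted p = 0.0339). Summed over 5 macrophage markers they gave 35.3 to 48.2 CPM in LSK and 122 to 123 CPM in LK, most of it from Vcam1. Vcam1 and Emr1 were lower in LSK cells (log2 difference -2.03 and -2.33), whereas the complement genes C1qa (1.18), C1qb (1.85) and C1qc (1.18) did not pass and had LSK values above LK values. Summed over 4 late neutrophil markers they gave 1030 to 1033 CPM in LSK and 862 to 919 CPM in LK, over 3 erythroid markers 25.5 to 34.0 CPM and 21.6 to 31.3 CPM, and over 5 stromal and endothelial markers 28.9 to 41.9 CPM and 31.7 to 34.9 CPM. Of the stromal markers the chemokine Cxcl12 was higher in LSK, at 11.99 and 9.02 CPM against 1.58 and 2.74 CPM (adjusted p = 0.033 by limma). Cxcl12 did not pass by edgeR (adjusted p = 0.0555) or by limma without the filter on low levels (0.142). With 1 library left out its log2 difference was 1.56 to 2.15. No marker of these cells was at 0 in all 4 libraries. The part of mature lymphocytes in the higher lymphoid and MHC class II levels of LSK cells was not tested. Ly6g and Hba-a1 were not analysed here.

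The same comparison in WT cells was set beside that of the knockout in a fit of all 8 libraries scaled together. The knockout libraries held reads of the Y-linked genes Eif2s3y and Uty and 0 to 13 reads of Xist, and the WT libraries held 1589 to 4050 reads of Xist and 0 of those Y-linked genes. Kdm5d, also Y-linked, had 2 to 50 reads in the knockout libraries and 0 in WT, and Y-linked Ddx3y had 0 reads in all 8. The comparison within the knockout is therefore within a sex, and between genotypes sex and genotype cannot be told apart. In that fit 3036 genes differed between LSK and LK in Ripk3-/- cells and 3769 in WT cells. Both comparisons called 1928 genes, which is 63.5% of the knockout's and 51.2% of the WT's, and 1914 of these went in the same direction. The 2 comparisons contrast different libraries, but they are not independent tests. Both come from 1 fit, in which the scaling and each gene's error estimate were taken over all 8 libraries. For Mpo the log2 difference was -3.77 in the knockout and -3.62 in WT, for Procr 5.65 and 5.06, for Hlf 3.89 and 3.14, for Cd74 2.72 and 3.90, for Fos 1.38 and 1.23, and for Ccnb1 -1.90 and -1.10. Stem cell identity genes were higher in 20 and 22 of 26, azurophil genes lower in 11 and 11 of 12, and mitosis genes lower in 18 and 16 of 22, in the knockout and WT in turn. Not every list was alike in the genotypes. Cytosolic ribosomal protein genes were lower in 25 and 1 of 75 and higher in 2 and 1, with medians of -0.33 and 0.07. For p53 target genes the medians were 0.006 and 0.74 in the same order, with 4 genes higher and 4 lower in WT. Gene by gene, however, the knockout minus WT difference of these 23 genes had a median of 0.03. It passed in 0 of them by limma or edgeR, and 2 had an unadjusted p under 0.05 by limma.

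The difference between the genotypes was tested gene by gene as an interaction. It passed in 56 of 15757 genes (0.355%), of which 29 were higher in the knockout contrast and 27 lower, with 1555 genes at an unadjusted p under 0.05. The number that passed was 7 without WT LSK replicate 2, 18 without WT LK replicate 1 or knockout LK replicate 1, 19 without WT LSK replicate 1, 30 without knockout LK replicate 2, 31 without knockout LSK replicate 2 and 95 without WT LK replicate 2. Of 100 stem cell identity, azurophil, MHC class II, mitosis and interferon-stimulated genes tested, 0 passed by limma or edgeR and 9 had an unadjusted p under 0.05. With 0.355% of all genes passing, this 0 does not show that the genotypes were alike in these genes. Other lists held genes that passed, among them 3 of 75 cytosolic ribosomal protein genes and 2 of 29 immediate-early genes. Ripk3 was among the 56 genes at -2.32 (SE 0.51, adjusted p = 0.0417).

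**Figure D5:**
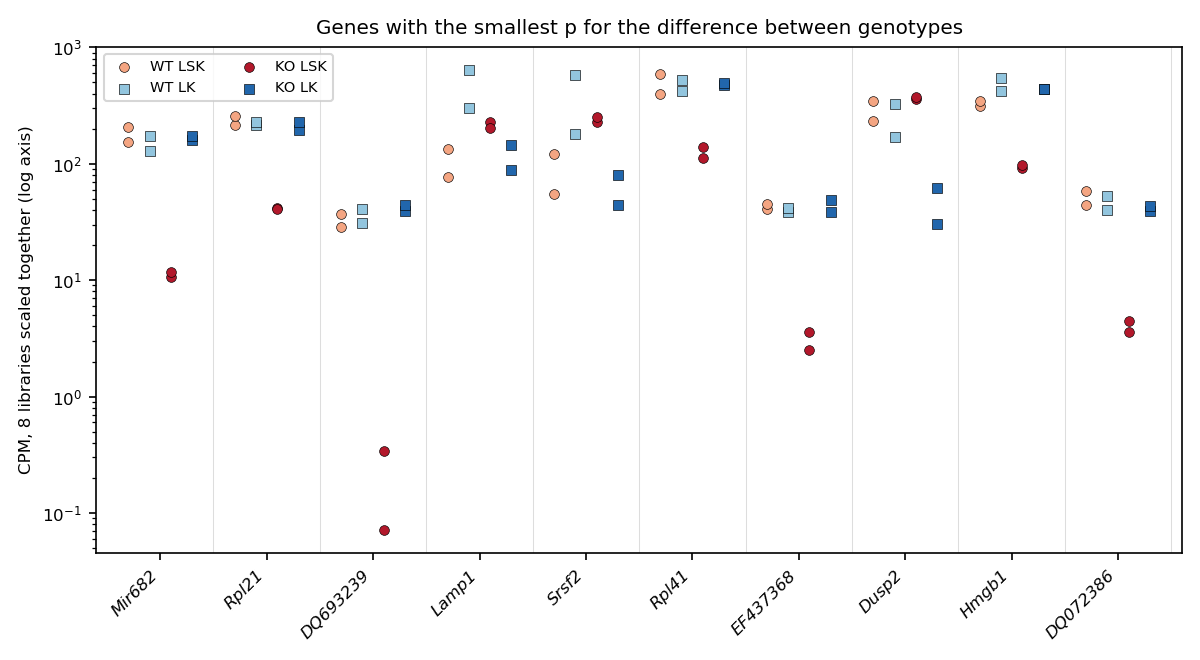
Points are the CPM (log axis, 8 libraries scaled together) of the 10 genes with the smallest p-values for the difference between genotypes, 1 point a library, with circles for LSK, squares for LK, pale colors for WT and dark colors for Ripk3-/-. Both Ripk3-/- LSK libraries sit below the other 6 in 7 genes, with DQ693239 at 0.0712 and 0.342 CPM, and the Ripk3-/- LK libraries sit below WT LK in Lamp1, Srsf2 and Dusp2.

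Of the 10 genes with the smallest p-values, 7 had their lowest values in the pair of Ripk3-/- LSK libraries. Rpl21 was 41.9 and 40.9 CPM in knockout LSK, 193 and 227 CPM in knockout LK, 217 and 256.3 CPM in WT LSK and 215 and 230.2 CPM in WT LK (difference -2.39, SE 0.28, adjusted p = 0.000133). Hmgb1, a chromatin protein that acts as a danger signal when released, was 91.4 and 97.6 CPM, 440.0 and 437 CPM, 313 and 343 CPM and 546 and 420.2 CPM in the same order (difference -1.65, SE 0.25, adjusted p = 0.0021). Mir682 was 10.5 and 11.8 CPM, 159.5 and 174 CPM, 154 and 205 CPM and 129.8 and 174 CPM (difference -4.02, SE 0.34, adjusted p = 6.79e-07). Rpl41 (-1.98), DQ693239 (-5.02), EF437368 (-3.55) and DQ072386 (-3.22) were likewise lowest in both Ripk3-/- LSK libraries. Of the 56 genes, 19 share at least 10% of their transcript stretches with another gene, and for 8 no annotated transcript was matched. Among all genes tested between Ripk3-/- LSK and LK that had a matched transcript, 1777 of 13806 share that much. The part of shared sequence in these differences was not tested.

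The mature miRNA of the Mir682 locus is shown because its sequence is not unique to that locus. It lies at chr13:75645119-75645139 on the plus strand (RefSeq, GRCm38.p6), with the seed, bases 2 to 8, in capitals.
mmu-miR-682: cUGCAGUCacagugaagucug
These 21 bases, read as DNA, also occur in transcripts of the ribosomal protein gene Rpl37a, in 6 pseudogenes and in 5 other miRNA genes. The whole hairpin of 96 bases occurs in 1 pseudogene and in no protein-coding gene or other miRNA gene. Whether reads named Mir682 in these libraries of polyadenylated RNA came from Rpl37a was not tested.

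In the other 3 of the 10 both knockout LK libraries were below both WT LK libraries, which were uneven. Srsf2, a splicing factor, was 228 and 252 CPM in knockout LSK, 44.0 and 80.8 CPM in knockout LK, 121 and 54.5 CPM in WT LSK and 576 and 179 CPM in WT LK (difference 3.96, SE 0.54, adjusted p = 0.000757). Lamp1, a lysosomal membrane protein, was 229 and 203 CPM, 88.3 and 146 CPM, 133 and 76.3 CPM and 638 and 302 CPM in that order (difference 3.03, adjusted p = 0.000757). Dusp2 was 358 and 373 CPM, 30.3 and 61.8 CPM, 348 and 231 CPM and 323 and 169 CPM (difference 2.77, adjusted p = 0.00154). WT LK replicate 1 was above WT LK replicate 2 in each, and knockout LK replicate 1 was the lowest of all 8 libraries for Srsf2 and Dusp2 but not for Lamp1. With 1 library left out the highest adjusted p was 0.0525 for Srsf2 and Rpl41, 0.0583 for Dusp2 and Hmgb1 and 0.0569 for DQ072386, and it was under 0.05 for Lamp1, Mir682, Rpl21, DQ693239 and EF437368.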

How the data were processed

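The 4 Ripk3-/- libraries were compared as LSK against LK, and all 8 libraries for the difference between genotypes. Per the submitters' processing notes, reads were aligned with TopHat to mm9. The counter and its use of strand were not given in the sources used here. The deposited signal carries the header FPKM, but each library's values were whole multiples (within 0.01) of 1 step, which makes them reads that the authors scaled by library, separately for LSK and LK, with no division by gene length. Values were divided by that step, and the recovered reads were joined and scaled by TMM (edgeR 4.0.16, R 4.3.3). Genes with a mean of at least 1 CPM were tested with limma 3.58.1 (trend) on log2(CPM + 1), two-sided, with Benjamini-Hochberg adjustment and a threshold of 0.05. An exact permutation test of 2 against 2 libraries cannot go below p = 0.333. Among the gene names 27 were turned into dates and 5 were bare numbers, and these were not named.

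The members and gene lists were chosen with earlier results of these data known. Named genes were the sort gate and Ripk3, the 12 largest differences each way among protein-coding genes that passed without overlap, up to 6 genes of smallest p in each list, members that describe a gate or another cell type, and the 10 smallest p-values between genotypes. Some genes that this rule selects are counted but not reported by name here. Members named beyond these were chosen after their values were seen. Alternatives were other pseudocounts, filters and scalings, edgeR and DESeq2 1.42.0 tests of the reads, a fit of all 8 libraries, a replicate block, no trend, thinned reads and each library left out. Crossed pairing and the removal of genes with shared stretches were added after seeing the data. The fits were tested on simulated data.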

Additional observations from a re-analysis of the deposited data

Results flagged for a closer look

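The difference between LSK and LK differed between the genotypes, by the interaction test of limma, in 56 of 15757 genes. The values below are the knockout log2 difference minus the WT log2 difference (LSK minus LK in both), and no cause was tested. It was negative for Mir682 (-4.02), Rpl21 (-2.39), Rpl41 (-1.98), Hmgb1 (-1.65), DQ693239 (-5.02), EF437368 (-3.55) and DQ072386 (-3.22), in which both Ripk3-/- LSK libraries were low. It was positive for Srsf2 (3.96), Lamp1 (3.03) and Dusp2 (2.77), in which the WT LK libraries were uneven. For Ripk3, the deleted gene, it was -2.32, with every knockout library far below every WT library. Sex and genotype cannot be told apart in these values, since Xist and Y-linked reads separated the genotypes.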

How the results depend on the processing

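Of the 184 named genes that passed between Ripk3-/- LSK and LK, 0 changed direction under any alternative, and 80 kept both direction and call under all of them. Calls were lost by 63 without LK replicate 2, 47 without LK replicate 1, 101 when the variance was not fitted as a trend, 42 without a filter on low levels and 20 or fewer under each other alternative.

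The number of genes that passed (2725) was 1434 without a filter (594 higher, 840 lower, 1168 at 2-fold or more) and 485 without the trend (325 higher, 160 lower, 485 at 2-fold or more), and ranged from 913 to 2884 with 1 library left out (524 to 1029 higher, 389 to 1855 lower, and 884 to 2162 at 2-fold or more). Scaled by total reads 1914 were higher and 990 lower, and as deposited 2002 and 757. Of the other alternatives, the edgeR test called 2235 and DESeq2 3084, and 2200 passed after genes with shared stretches were left out. The cause of the change without the filter and without the trend was not tested. Between genotypes the number (56) ranged from 7 to 95 with 1 library left out.

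Same-numbered LSK and LK libraries of the knockout deviated with a correlation of -0.148. Replicate numbers need not match across the populations, so this value cannot settle whether libraries were paired. The replicate block gave 2473 genes, and 47 between genotypes. Crossed pairing, chosen after seeing the data, gave 4112 (1808 higher, 2304 lower).

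Of the named genes that did not pass, 12 changed sign under some alternative. Their log2 differences in the test reported above ran from -0.18 for Oma1 to 0.62 for Tek. With 1 library left out, log2 differences ranged from -0.22 to 0.24 for Kit, -0.22 to 0.17 for Fli1, -0.20 to 0.27 for Gata2, -0.65 to 0.72 for Igll1, -0.12 to 0.20 for Mdm2, -0.52 to 0.68 for Rag2, -0.39 to 0.22 for Vpreb1, -0.21 to 1.37 for Tek, -0.0937 to 0.84 for Ctnnal1, -0.0387 to 0.46 for Vwf and -0.0342 to 0.65 for Eif2s3y. The DESeq2 test gave -0.022 for Fli1, -0.098 for Igll1 and -0.0031 for Kit, DESeq2 size factors -0.00867 for Fli1 and -0.019 for Kit, thinned reads -0.028 for Fli1, -0.072 for Igll1 and -0.012 for Kit, and the fit of all 8 libraries -0.041 for Fli1, -0.052 for Kit and -0.017 for Mdm2. The edgeR test gave -0.0869 for Igll1. Scaled by total reads and as deposited, Oma1 was 0.079 and 0.13 and Vpreb1 was 0.12 and 0.15. The cause of these changes was not tested.

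The depth limits genes near 0, where 3 reads correspond to 0.210 to 0.260 CPM. With 2 libraries a population, the error estimate borrows from other genes, and 1 library decides many calls.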
